A study of Mus musculus with 12 samples.

Results

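The genes described here make up the sterol and fatty acid synthesis module of the cell, with the SREBP system that controls it. Of 35 listed genes, 34 had a probe set and were tested among 12190 genes, each through its probe set with the highest mean over the 12 arrays. They were 17 enzymes of sterol synthesis, 6 regulators and sterol carriers of the SREBP system, 9 enzymes of fatty acid synthesis, elongation and desaturation, and 2 sterol exporters. Acat2 was listed too and was not analysed here. Expression was measured on whole-genome mouse arrays in follicular B cells, the resting recirculating B cells of the spleen, from male 129SvEv mice of 8 weeks. The cells had been sorted as B220+ and AA4.1-, with high CD23 and intermediate CD21. There were 6 groups of 2 arrays, namely cells labelled Zfx cko after 0, 2 and 12 h of culture with anti-IgM at 10 µg/mL, and cells labelled Zfx wt after the same times. Anti-IgM crosslinks the B cell receptor, and all 6 groups shared the strain, sex, age and sort. No group was cultured for 2 or 12 h without anti-IgM, so anti-IgM and time in culture cannot be told apart. Zfx encodes a zinc finger transcription factor. The promoter or cell type that drove the deletion is unstated here. Nor do the sources used here give whether the 2 arrays of a group came from different mice, so p-values measure only the spread between arrays.

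Cholesterol is built from acetyl-CoA through mevalonate, farnesyl diphosphate, squalene and lanosterol. SREBP-2 (Srebf2) mainly drives the genes of that route and SREBP-1 (Srebf1) mainly those of fatty acid synthesis. Both are held in the endoplasmic reticulum by Scap and the Insig proteins while sterol is plentiful, and are carried to the Golgi and cut into active factors when it runs low. Oxysterols act in the opposite direction through the LXR receptors, which induce the exporters Abca1 and Abcg1, and lymphocytes that enter the cell cycle need new membrane sterol and fatty acid.

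The 6 promoters shown belong to the sterol enzymes and regulators with the largest rise at 12 h against 0 h in wt cells. Only members with an available promoter sequence were considered. The rises were 3.06 for Idi1, 2.43 for Cyp51, 2.41 for Hmgcs1, 1.51 for Lss, 1.49 for Mvd and 1.3 for Srebf2. Sqle, Fdft1 and Fdps rose more than Lss but had no promoter sequence available. In wt cells Idi1, Cyp51 and Hmgcs1 were already higher at 2 h, and Lss and Mvd were lower at 2 h. Each sequence is RefSeq's on build GRCm38.p6 and covers 250 bases before to 50 bases after the annotated start, written in the direction of the gene. Capitals mark matches on either strand to TCACNCCAC (a sterol regulatory element consensus), CCAAT (bound by NF-Y) or GGGCGG (bound by Sp1), and no matches overlapped.
Idi1, chr13:8885356-8885655, plus strand: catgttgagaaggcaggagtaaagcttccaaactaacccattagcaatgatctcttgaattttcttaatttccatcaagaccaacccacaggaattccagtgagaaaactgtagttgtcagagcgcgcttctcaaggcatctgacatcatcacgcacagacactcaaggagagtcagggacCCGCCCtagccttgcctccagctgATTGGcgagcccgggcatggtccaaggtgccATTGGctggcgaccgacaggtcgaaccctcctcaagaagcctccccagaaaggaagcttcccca
Cyp51, chr5:4104648-4104947, minus strand: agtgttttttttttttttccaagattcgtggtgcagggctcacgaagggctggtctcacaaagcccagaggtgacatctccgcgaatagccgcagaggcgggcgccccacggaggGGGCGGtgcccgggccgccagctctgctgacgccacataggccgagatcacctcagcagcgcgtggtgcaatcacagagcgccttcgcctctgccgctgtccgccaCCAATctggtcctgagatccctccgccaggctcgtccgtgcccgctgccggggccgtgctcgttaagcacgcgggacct
Hmgcs1, chr13:119690101-119690400, plus strand: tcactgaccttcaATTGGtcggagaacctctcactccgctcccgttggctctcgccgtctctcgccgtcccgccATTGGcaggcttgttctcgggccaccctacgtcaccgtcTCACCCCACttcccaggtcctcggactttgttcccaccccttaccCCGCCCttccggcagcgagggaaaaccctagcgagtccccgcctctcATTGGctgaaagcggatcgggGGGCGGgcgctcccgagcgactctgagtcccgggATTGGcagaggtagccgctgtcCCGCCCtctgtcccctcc
Lss, chr10:76531355-76531654, plus strand: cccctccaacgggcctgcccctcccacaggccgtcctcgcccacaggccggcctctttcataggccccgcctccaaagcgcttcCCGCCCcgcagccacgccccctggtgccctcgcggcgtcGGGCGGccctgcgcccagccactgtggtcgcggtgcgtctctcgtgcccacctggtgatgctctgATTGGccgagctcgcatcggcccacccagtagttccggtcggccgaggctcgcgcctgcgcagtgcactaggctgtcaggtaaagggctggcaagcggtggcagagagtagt
Mvd, chr8:122443373-122443672, minus strand: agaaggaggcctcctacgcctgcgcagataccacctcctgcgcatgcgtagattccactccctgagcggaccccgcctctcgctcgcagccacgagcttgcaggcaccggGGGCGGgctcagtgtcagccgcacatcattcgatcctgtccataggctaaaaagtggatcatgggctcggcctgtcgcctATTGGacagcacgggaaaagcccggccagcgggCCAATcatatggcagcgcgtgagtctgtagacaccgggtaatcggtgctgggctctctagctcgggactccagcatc
Srebf2, chr15:82147019-82147318, plus strand: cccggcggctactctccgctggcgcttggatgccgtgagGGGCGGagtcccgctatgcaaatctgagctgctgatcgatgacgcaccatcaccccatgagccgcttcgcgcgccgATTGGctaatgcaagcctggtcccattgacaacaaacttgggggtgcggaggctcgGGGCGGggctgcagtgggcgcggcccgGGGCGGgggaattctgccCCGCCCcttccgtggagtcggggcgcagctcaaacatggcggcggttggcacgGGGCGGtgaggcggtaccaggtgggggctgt
Of the tested members, 26 had a promoter in the table. TCACNCCAC occurred in 1 of the 26, Hmgcs1, and in 1.24% of all 32851 promoters of the table. CCAAT occurred in 21 of the 26 members and in 37.41% of all promoters, and GGGCGG in 21 of the 26 and in 35.66% of all. These shares are not like for like. Members were counted by gene and had passed a filter on low signals, whereas the table was counted by promoter without that filter. The Hmgcs1 promoter above held 4 CCAAT matches, 1 TCACNCCAC match and 3 GGGCGG matches. A match describes these letters in this window and does not show a binding site.

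Differences are given on the log2(signal + 16) scale with the standard error of the fit, and genes with an adjusted p below 0.05 in limma's fit over all 12190 genes are described as called. With 2 arrays per group, lack of overlap between 2 groups is common: it held for 63.6 to 81.1% of all genes, depending on the comparison. All 6 B cell markers and 3 follicular markers with a probe set passed the filter on low signals, from Cd79b (signal 6620 to 22937) to Pax5 (86.2 to 935.6), and the follicular marker Cr2 spanned 343.3 to 7837. Their levels moved with time: the summed B cell signal was 78717 to 78942 at 0 h, 25557 to 25589 at 2 h and 41258 to 41831 at 12 h on cko arrays, against 69063 to 69695, 27291 to 29093 and 36444 to 37512 on wt arrays. Of 10 myeloid markers 9 passed the filter, with S100a8 at 926.3 to 12117 and S100a9 at 372.5 to 4251, while Itgam had signals of 0.715 to 18.3. The brightest of 4 Zfx probe sets was called higher on the arrays labelled cko than on those labelled wt at all 3 times (1.23 ± 0.09 at 0 h, 0.32 ± 0.09 at 2 h and 0.38 ± 0.09 at 12 h), with a mean signal of 2403 in cko cells at 0 h, against 1012 in wt cells. The position of the Zfx probe sets relative to the deletion is not given, so Zfx signals do not check the labels. The 5′ signal of the actin control probe sets was 8.41 to 19.1% of their 3′ signal on cko 2 h, cko 12 h and wt 2 h arrays, and 1.80 to 3.33% on cko 0 h, wt 0 h and wt 12 h arrays. The 18S ribosomal RNA signal was 1022 to 1299 on arrays of the first kind and 6636 to 10892 on the others. Arrays on 1 side of that control-probe division are compared by cko against wt at 0 h and at 2 h, by 12 h against 2 h in cko cells and by 12 h against 0 h in wt cells. In the other comparisons the division and the groups cannot be told apart without assuming additive effects. For some members, values from a fit with genotype, time and the division as additive terms are given beside them. Within a side the actin ratio still differed, and its part was not tested. It was 10.6 and 10.8% on cko 2 h, 19.1 and 19% on cko 12 h and 8.51 and 8.41% on wt 2 h arrays. On the other side it was 1.99 and 1.80% on cko 0 h, 3.27 and 3.33% on wt 0 h and 2.11 and 2.27% on wt 12 h arrays.

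Late in the response the sterol enzymes rose in cells of both genotypes and the exporters fell. In cko cells 24 of the 34 members rose and 6 fell at 12 h against 2 h, where 49% of all genes were called, 30.2% higher and 18.7% lower. In wt cells 23 members rose and 4 fell at 12 h against 0 h, where 47.9% of all genes were called, 24.8% higher and 23.1% lower. Of the 17 sterol enzymes, 17 rose in the cko comparison and 15 in the wt comparison, in which Ebp and Dhcr7 were not called. These 2 counts have different baselines. In cko cells 8 of these enzymes were called lower at 2 h than at 0 h, and 14 rose at 12 h against 0 h, both across the division. The median difference of these enzymes was 1.21 at 12 h against 2 h in cko cells, where all genes had a median of 0.10. It was 1.25 at 12 h against 0 h in wt cells, where all genes had a median of 0.03. Calls of at least 2-fold higher numbered 15 members in the cko comparison, against 11.2% of all genes, and 13 members in the wt comparison, against 8% of all genes.

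In wt cells at 12 h against 0 h the largest difference of any member was that of Idi1, in the mevalonate part of the route. Idi1, which interconverts the isoprenoid units made from mevalonate, had signals of 234 and 333 at 0 h, 1987 and 1944 at 2 h and 3128 and 3463 at 12 h on cko arrays, against 292 and 255 at 0 h, 1446 and 1303 at 2 h and 2358 and 2412 at 12 h on wt arrays. Within each genotype the 3 times were apart with no overlap, and the cko arrays were above the wt arrays at 2 and 12 h. Idi1 was 1.67-fold higher at 12 h than at 2 h in cko cells (0.74 ± 0.13, adjusted p = 0.00024) and 8.31-fold higher at 12 h than at 0 h in wt cells (3.06 ± 0.13, adjusted p = 2.5e-10). Hmgcs1, the cytosolic HMG-CoA synthase, had signals of 5245 and 5285 at 0 h, 6065 and 6181 at 2 h and 13583 and 14768 at 12 h on cko arrays, against 3347 and 3529.8 at 0 h, 6848 and 6683 at 2 h and 18020.5 and 18682 at 12 h on wt arrays. Its wt arrays at 12 h were the brightest of the 12 and its wt arrays at 0 h the dimmest. It rose 2.31-fold at 12 h against 2 h in cko cells (1.21 ± 0.05, adjusted p = 5.1e-10) and 5.32-fold at 12 h against 0 h in wt cells (2.41 ± 0.05, adjusted p = 2.3e-12).

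Mvd, the decarboxylase that ends the mevalonate branch, had signals of 212 and 205 at 0 h, 119.6 and 138 at 2 h and 195 and 178 at 12 h on cko arrays, against 113 and 134 at 0 h, 70.6 and 79.0 at 2 h and 389 and 358 at 12 h on wt arrays. In cko cells the 0 h and 12 h arrays lay close together with the 2 h arrays below them, whereas in wt cells the 12 h arrays were above all others. The difference was 0.49 ± 0.16 (adjusted p = 0.019) at 12 h against 2 h in cko cells and 1.49 ± 0.16 (adjusted p = 2.3e-06) at 12 h against 0 h in wt cells. The cko call was lost without cko 2 h replicate 1 (0.40, adjusted p = 0.12) or cko 12 h replicate 1 (0.42, adjusted p = 0.11). Of the mevalonate kinases, Mvk differed by 1.79 ± 0.24 and Pmvk by 1.27 ± 0.10 at 12 h against 2 h in cko cells, and by 1.18 ± 0.24 and 0.57 ± 0.10 at 12 h against 0 h in wt cells. The other Mvk probe set was called in neither comparison (0.96 in cko cells and -0.07 in wt cells). Fdps, which makes farnesyl diphosphate, had signals of 73.1 and 99.3 at 0 h, 272 and 224 at 2 h and 586 and 564 at 12 h on cko arrays, against 30.2 and 44.0 at 0 h, 144 and 197 at 2 h and 153 and 139 at 12 h on wt arrays. The 12 h arrays of cko cells were the brightest and the 0 h arrays of wt cells the dimmest. Its difference was 1.17 ± 0.20 (adjusted p = 0.00024) at 12 h against 2 h in cko cells and 1.62 ± 0.20 (adjusted p = 1.2e-05) at 12 h against 0 h in wt cells.

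From squalene to lanosterol, Fdft1, Sqle and Lss also rose. Sqle, the squalene epoxidase, had signals of 229 and 164 at 0 h, 597 and 638 at 2 h and 1544 and 1481 at 12 h on cko arrays, against 312 and 281 at 0 h, 666 and 743 at 2 h and 1331 and 1332 at 12 h on wt arrays. Its groups ran in the order of the time points in each genotype without overlap. The difference was 1.27 ± 0.13 (adjusted p = 1.4e-06) at 12 h against 2 h in cko cells and 2.11 ± 0.13 (adjusted p = 7.5e-09) at 12 h against 0 h in wt cells. Lss, which closes the rings of lanosterol, had signals of 360.2 and 389.5 at 0 h, 134 and 136 at 2 h and 462 and 476 at 12 h on cko arrays, against 302 and 271 at 0 h, 105 and 121 at 2 h and 828 and 865 at 12 h on wt arrays. Its 2 h arrays were the dimmest in each genotype, and its 12 h wt arrays were brighter than any cko array. Lss differed by 1.68 ± 0.12 (adjusted p = 4.9e-08) at 12 h against 2 h in cko cells and by 1.51 ± 0.12 (adjusted p = 1.2e-07) at 12 h against 0 h in wt cells. Of its 2 other probe sets, 1 was called the same way in the cko comparison (-0.33 and 1.13). Neither was called in the wt comparison (0.18 and 0.30). Fdft1, the squalene synthase, rose by 1.87 ± 0.08 in the same cko comparison and by 1.90 ± 0.08 in the wt one.

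The late steps, from lanosterol to cholesterol, moved less evenly. Cyp51, the lanosterol demethylase, had signals of 77.3 and 67.0 at 0 h, 492 and 431 at 2 h and 568 and 666 at 12 h on cko arrays, against 84.2 and 82.2 at 0 h, 344 and 279.6 at 2 h and 556 and 481 at 12 h on wt arrays. Every 2 h and 12 h array lay above every 0 h array in each genotype, and at 12 h the cko arrays lay just above the wt arrays. At 12 h against 2 h in cko cells it differed by 0.41 ± 0.15 (adjusted p = 0.035), a call that was lost without cko 2 h replicate 2 (0.31, adjusted p = 0.20) or cko 12 h replicate 2 (0.29, adjusted p = 0.24). It differed by 2.43 ± 0.15 (adjusted p = 8.5e-09) at 12 h against 0 h in wt cells. Msmo1, which removes methyl groups from sterols, had signals of 47.9 and 25.2 at 0 h, 359.6 and 319 at 2 h and 691 and 671 at 12 h on cko arrays, against 47.7 and 65.4 at 0 h, 164 and 185 at 2 h and 92.0 and 91.9 at 12 h on wt arrays. Its cko arrays were several times brighter than its wt arrays at 12 h, and the genotypes overlapped at 0 h. Msmo1 differed by 0.97 ± 0.21 (adjusted p = 0.0013) at 12 h against 2 h in cko cells. In wt cells it differed by 0.58 ± 0.21 (adjusted p = 0.032) at 12 h against 0 h, and without wt 0 h replicate 1 or either wt 12 h array that call was lost (0.41 to 0.58, adjusted p = 0.092 to 0.21).

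Sc5d, a sterol desaturase, had signals of 112 and 94.1 at 0 h, 376 and 396 at 2 h and 842 and 837 at 12 h on cko arrays, against 222 and 160.4 at 0 h, 352 and 328 at 2 h and 477 and 468 at 12 h on wt arrays. In cko cells its lowest and highest arrays lay further apart than in wt cells. It differed by 1.09 ± 0.14 (adjusted p = 1.9e-05) at 12 h against 2 h in cko cells and by 1.25 ± 0.14 (adjusted p = 4.9e-06) at 12 h against 0 h in wt cells. Its 2 other probe sets were not called in the cko comparison (0.0 and 0.01), where the mean of its probe sets was not called either (0.37). In the wt comparison 1 of them was called the same way (0.33 and 0.75). Ebp, the sterol isomerase, had signals of 575 and 681 at 0 h, 1127 and 1425 at 2 h and 2842 and 2222 at 12 h on cko arrays, against 939 and 752 at 0 h, 795 and 998 at 2 h and 909 and 843 at 12 h on wt arrays. Its wt arrays overlapped between all 3 times and its cko arrays did not. The Ebp difference was 0.98 ± 0.15 (adjusted p = 0.00011) at 12 h against 2 h in cko cells, and 0.06 (adjusted p = 0.79, not called) at 12 h against 0 h in wt cells. Dhcr7, which catalyses the last step of cholesterol synthesis, had signals of 335 and 171 at 0 h, 16.8 and 34.1 at 2 h and 187 and 197 at 12 h on cko arrays, against 225 and 528 at 0 h, 17.4 and 9.08 at 2 h and 590.0 and 436 at 12 h on wt arrays. The 2 h arrays of each genotype were far below the rest, near the filter on low signals of 19.2, and the 0 h arrays of a group differed widely. It differed by 2.36 ± 0.37 (adjusted p = 9.4e-05) at 12 h against 2 h in cko cells and was not called at 12 h against 0 h in wt cells.

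Hsd17b7, a ketosteroid reductase of this route, had signals of 702 and 669 at 0 h, 444 and 379 at 2 h and 1088 and 954 at 12 h on cko arrays, against 418 and 345 at 0 h, 212 and 234 at 2 h and 890.2 and 790.3 at 12 h on wt arrays. Its 12 h arrays were the brightest of each genotype and its 2 h arrays the dimmest. It differed by 1.28 ± 0.12 (adjusted p = 9.4e-07) at 12 h against 2 h in cko cells and by 1.11 ± 0.12 (adjusted p = 3.6e-06) at 12 h against 0 h in wt cells. Tm7sf2, a sterol reductase, had signals of 86.0 and 79.7 at 0 h, 33.8 and 28.3 at 2 h and 195 and 199.6 at 12 h on cko arrays, against 89.7 and 108 at 0 h, 58.2 and 47.8 at 2 h and 188 and 159 at 12 h on wt arrays. At 2 h the arrays of both genotypes were dimmer than at either other time. Tm7sf2 differed by 2.18 ± 0.20 (adjusted p = 5.6e-07) at 12 h against 2 h in cko cells, its call at 12 h against 0 h in wt cells (0.72 ± 0.20, adjusted p = 0.0077) being lost without wt 0 h replicate 1 or wt 12 h replicate 1 (0.61, adjusted p = 0.061 and 0.063). Nsdhl, a sterol dehydrogenase, differed by 1.15 ± 0.16 in the cko comparison and by 0.67 ± 0.16 in the wt comparison.

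**Figure D1:**
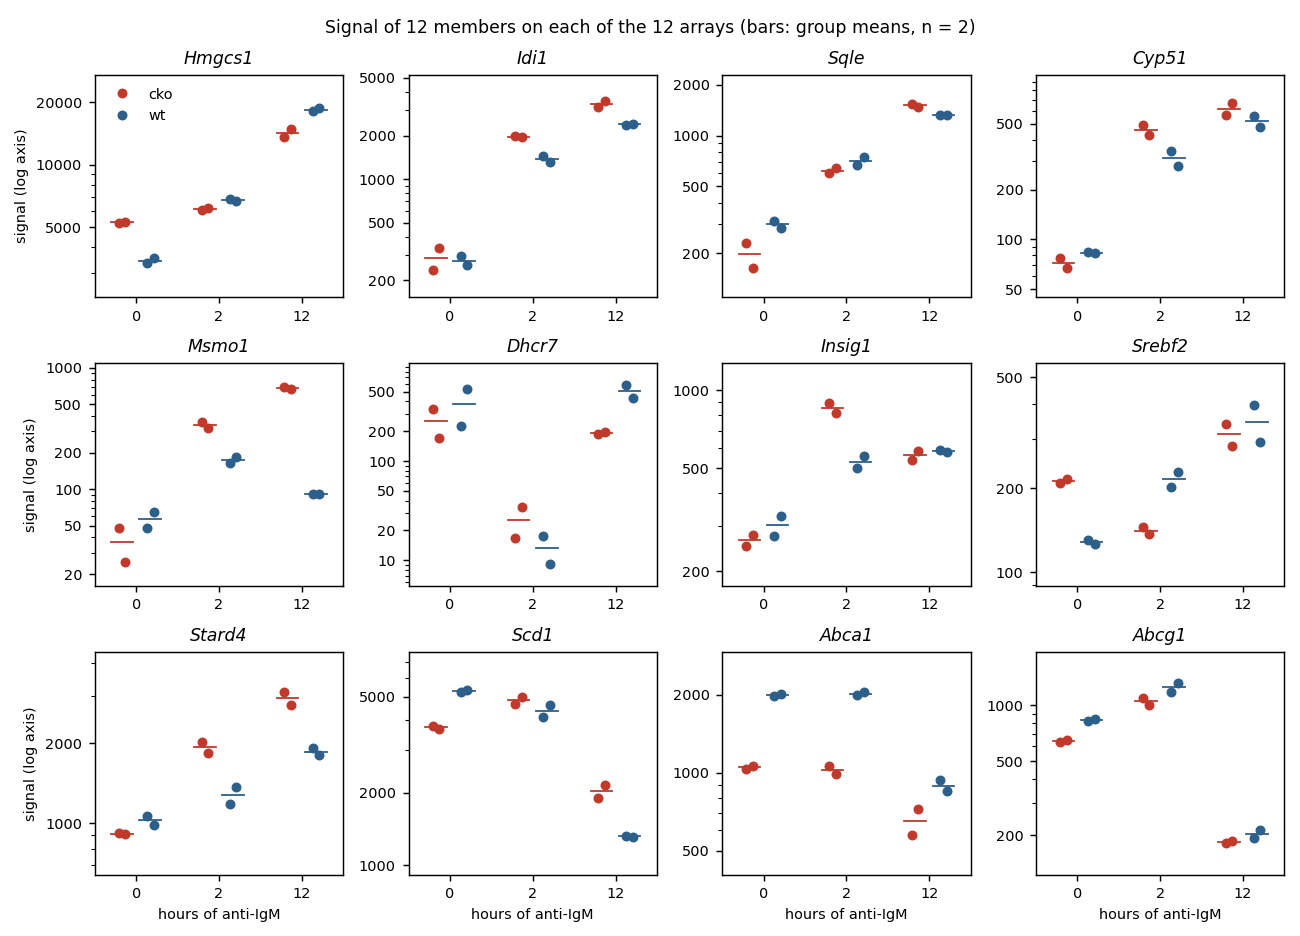
Signal (log axis) of 12 members on each of the 12 arrays by hours of anti-IgM, with cko arrays in red left of wt arrays in blue and a bar at the mean of each group of 2. Idi1, Sqle and Cyp51 are lowest at 0 h in each genotype, Msmo1 is at 691 and 671 on the 12 h cko arrays against 92.0 and 91.9 on the 12 h wt arrays, and Abcg1 is lowest at 12 h.

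The regulators did not change together. Srebf2 had signals of 209 and 216 at 0 h, 145 and 137 at 2 h and 339 and 284 at 12 h on cko arrays, against 130.4 and 126 at 0 h, 202 and 228 at 2 h and 397 and 292 at 12 h on wt arrays. The 12 h arrays of each genotype were above the others of that genotype, and at 2 h the cko arrays were below and the wt arrays above their 0 h arrays. Srebf2 rose at 12 h against 2 h in cko cells (1.06 ± 0.16, adjusted p = 7.8e-05) and at 12 h against 0 h in wt cells (1.30 ± 0.16, adjusted p = 1.1e-05). Srebf1 had signals of 980.0 and 1034 at 0 h, 787 and 803 at 2 h and 858 and 989 at 12 h on cko arrays, against 874 and 888 at 0 h, 989 and 888 at 2 h and 1009 and 1072 at 12 h on wt arrays. All 12 arrays lay in a narrow range, between 787 and 1072. It was not called at 12 h against 2 h in cko cells (0.21, adjusted p = 0.067). At 12 h against 0 h in wt cells its difference of 0.24 ± 0.09 (adjusted p = 0.041) was called, but not without any one of the 4 wt arrays compared or either cko 2 h array (0.19 to 0.28, adjusted p = 0.052 to 0.19).

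Scap, the escort that carries SREBP to the Golgi, had signals of 936 and 864 at 0 h, 479 and 532 at 2 h and 627 and 663 at 12 h on cko arrays, against 972 and 915 at 0 h, 669 and 689 at 2 h and 1179.7 and 1292 at 12 h on wt arrays. In cko cells the 0 h arrays were the brightest, and in wt cells the 12 h arrays were. Scap rose at 12 h against 2 h in cko cells (0.34 ± 0.09, adjusted p = 0.0053), a call lost without cko 2 h replicate 1 (0.27, adjusted p = 0.06). It also rose at 12 h against 0 h in wt cells (0.38 ± 0.09, adjusted p = 0.0027). The other Scap probe set was called in neither comparison (0.07 in cko cells and 0.13 in wt cells). Insig1, an SREBP target that retains the Scap complex, had signals of 250.2 and 277 at 0 h, 895 and 816 at 2 h and 537 and 585 at 12 h on cko arrays, against 275 and 328 at 0 h, 503 and 558 at 2 h and 591 and 578 at 12 h on wt arrays. Its 0 h arrays were the lowest in each genotype, and in cko cells its 2 h arrays were the highest. Insig1 fell at 12 h against 2 h in cko cells (-0.59 ± 0.11, adjusted p = 0.00054) and rose at 12 h against 0 h in wt cells (0.92 ± 0.11, adjusted p = 1e-05).

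Insig2, the other retention protein, had signals of 979 and 988 at 0 h, 705 and 718 at 2 h and 642 and 774 at 12 h on cko arrays, against 891 and 890.5 at 0 h, 1040.0 and 981 at 2 h and 857 and 849 at 12 h on wt arrays. The cko arrays at 2 and 12 h were dimmer than every wt array, and the wt groups spanned a narrow range. It was not called at 12 h against 2 h in cko cells (-0.01) nor at 12 h against 0 h in wt cells (-0.06). Its 2 other probe sets gave -0.61 (adjusted p = 0.0097) and -0.39 (adjusted p = 0.087) in the cko comparison, and -0.62 (adjusted p = 0.0093) and -0.49 (adjusted p = 0.035) in the wt comparison in limma's fit. Stard4, a carrier of cholesterol between membranes and an SREBP-2 target, had signals of 916 and 910.3 at 0 h, 2021 and 1834 at 2 h and 3098 and 2791 at 12 h on cko arrays, against 1067 and 985 at 0 h, 1182 and 1363 at 2 h and 1919.8 and 1797 at 12 h on wt arrays. The times followed one another upward in each genotype without overlap. The Stard4 difference was 0.61 ± 0.09 (adjusted p = 4.7e-05) at 12 h against 2 h in cko cells and 0.85 ± 0.09 (adjusted p = 1.8e-06) at 12 h against 0 h in wt cells. In each comparison 1 of 2 other Stard4 probe sets was called the same way (-0.19 and 0.36 in cko cells, 0.14 and 2.4 in wt cells). Of the 6 genes of this kind, 3 rose and 1 fell in the cko comparison and 5 rose in the wt comparison. With probe sets averaged by gene, Scap (0.21) and Stard4 (0.26) were not called in the cko comparison, nor Scap (0.25) in the wt comparison. Insig2 was then called lower in both (-0.34 and -0.39).

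The fatty acid enzymes did not move as 1 group. In the cko comparison 4 of the 9 rose and 3 fell, and in the wt comparison 3 rose and 2 fell. Acly, which makes cytosolic acetyl-CoA for both routes, had signals of 7326 and 7355 at 0 h, 3561 and 2809 at 2 h and 5825 and 5569.9 at 12 h on cko arrays, against 6831 and 6971 at 0 h, 3925 and 3487 at 2 h and 10521 and 10691 at 12 h on wt arrays. Its 2 h arrays were the lowest in each genotype and its 12 h wt arrays the highest of all. Acly rose at 12 h against 2 h in cko cells (0.85 ± 0.09, adjusted p = 2e-06) and at 12 h against 0 h in wt cells (0.62 ± 0.09, adjusted p = 4.1e-05). Its 4 other probe sets were not called in the cko comparison (-0.04 to 0.59), nor was the mean of its probe sets (0.37). In the wt comparison 1 of them was called the same way (-0.40 to 1.72). Acaca, the acetyl-CoA carboxylase, had signals of 423 and 351 at 0 h, 199 and 133 at 2 h and 329.9 and 351 at 12 h on cko arrays, against 567 and 627 at 0 h, 147 and 158 at 2 h and 668 and 666 at 12 h on wt arrays. The 2 h arrays of both genotypes were the dimmest, and the 12 h wt arrays overlapped no cko array. Its difference was 0.99 ± 0.16 (adjusted p = 0.00012) at 12 h against 2 h in cko cells, and it was not called at 12 h against 0 h in wt cells (0.16).

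Fasn, the fatty acid synthase, had signals of 289.7 and 287 at 0 h, 326 and 389.7 at 2 h and 289.8 and 335 at 12 h on cko arrays, against 526 and 496 at 0 h, 581 and 525 at 2 h and 771 and 516 at 12 h on wt arrays. Every cko array was below every wt array, and the wt arrays of the 3 times overlapped. Fasn was called in neither of these comparisons (-0.19 in cko cells and 0.30 in wt cells). Elovl6, which lengthens palmitate, had signals of 112 and 170.5 at 0 h, 35.3 and 22.9 at 2 h and 153 and 136 at 12 h on cko arrays, against 82.6 and 78.0 at 0 h, 29.6 and 12.7 at 2 h and 174 and 214 at 12 h on wt arrays. At 2 h both genotypes were near the filter on low signals. Elovl6 differed by 1.84 ± 0.27 (adjusted p = 5.8e-05) at 12 h against 2 h in cko cells and by 1.12 ± 0.27 (adjusted p = 0.0034) at 12 h against 0 h in wt cells, and Fads1, which desaturates polyunsaturated fatty acids, by 1.64 ± 0.22 and 0.95 ± 0.22. In the cko comparison 1 of 2 other Elovl6 probe sets (0.87 and 0.94) and the other Fads1 probe set (1.60) were called the same way. In the wt comparison none of these was called (-0.18 and 0.22 for Elovl6, 0.05 for Fads1). With probe sets averaged by gene both wt calls were lost (0.39 and 0.50).

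The stearoyl-CoA desaturases, which make monounsaturated fatty acids, fell. Scd1 had signals of 3791 and 3661 at 0 h, 4669 and 4994 at 2 h and 1904 and 2154 at 12 h on cko arrays, against 5217 and 5355 at 0 h, 4111 and 4628 at 2 h and 1323 and 1306 at 12 h on wt arrays. Its 12 h arrays were far below the 0 and 2 h arrays in each genotype. Scd1 fell at 12 h against 2 h in cko cells to 0.421 of its level (-1.25 ± 0.07, adjusted p = 6.8e-09) and at 12 h against 0 h in wt cells to 0.251 of its level (-1.99 ± 0.07, adjusted p = 7.5e-11). Scd2 had signals of 658 and 604 at 0 h, 463 and 442 at 2 h and 340.4 and 299 at 12 h on cko arrays, against 902 and 914 at 0 h, 485 and 464 at 2 h and 475 and 468 at 12 h on wt arrays. The 0 h arrays were the brightest of each genotype. It fell in the cko comparison (-0.48 ± 0.10, adjusted p = 0.00089) and in the wt comparison (-0.92 ± 0.10, adjusted p = 2.4e-06). A further Scd2 probe set above the filter was called in neither comparison (0.32 and 0.57). Elovl5, which lengthens polyunsaturated fatty acids, fell in the cko comparison (-0.65 ± 0.07, adjusted p = 1.8e-06), and was not called in the wt comparison (0.05), where its other probe set fell (-0.44, adjusted p = 0.00022). Fads2, a further polyunsaturated fatty acid desaturase, was called in none of the 11 comparisons.

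Both sterol exporters fell late. Abcg1, which passes sterol to lipoproteins, had signals of 636 and 653 at 0 h, 1095 and 1001 at 2 h and 182 and 186 at 12 h on cko arrays, against 825 and 844 at 0 h, 1179 and 1306 at 2 h and 194 and 214 at 12 h on wt arrays. The 12 h arrays of both genotypes were several times dimmer than all others. It fell at 12 h against 2 h in cko cells (-2.41 ± 0.10, adjusted p = 2.4e-10) and at 12 h against 0 h in wt cells (-1.95 ± 0.10, adjusted p = 1.1e-09), and its second probe set was called the same way (-2.02 and -3.96). Abca1, the exporter to lipid-poor apolipoprotein, had signals of 1035 and 1065 at 0 h, 1063 and 988 at 2 h and 575 and 725 at 12 h on cko arrays, against 1984 and 2003 at 0 h, 1986 and 2054 at 2 h and 936 and 849.8 at 12 h on wt arrays. In each genotype the 12 h arrays were the dimmest, and at every time the cko arrays were below the wt arrays. Abca1 fell at 12 h against 2 h in cko cells (-0.65 ± 0.10, adjusted p = 6.8e-05) and at 12 h against 0 h in wt cells (-1.15 ± 0.10, adjusted p = 2.5e-07), while its 2 other probe sets were not called (-0.15 and 0.05 in cko cells, -0.20 and 0.37 in wt cells). The summed signal of the 10 myeloid markers was 2240 to 2243 at 12 h and 2142 to 2364 at 2 h on cko arrays. On wt arrays it was 6446 to 7263 at 12 h and 18011 to 18635 at 0 h, and the part of these markers in the fall of Abca1 and Abcg1 was not tested. In these RNA pools, fewer cells of a type and less RNA per cell cannot be told apart.

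**Figure D2:**
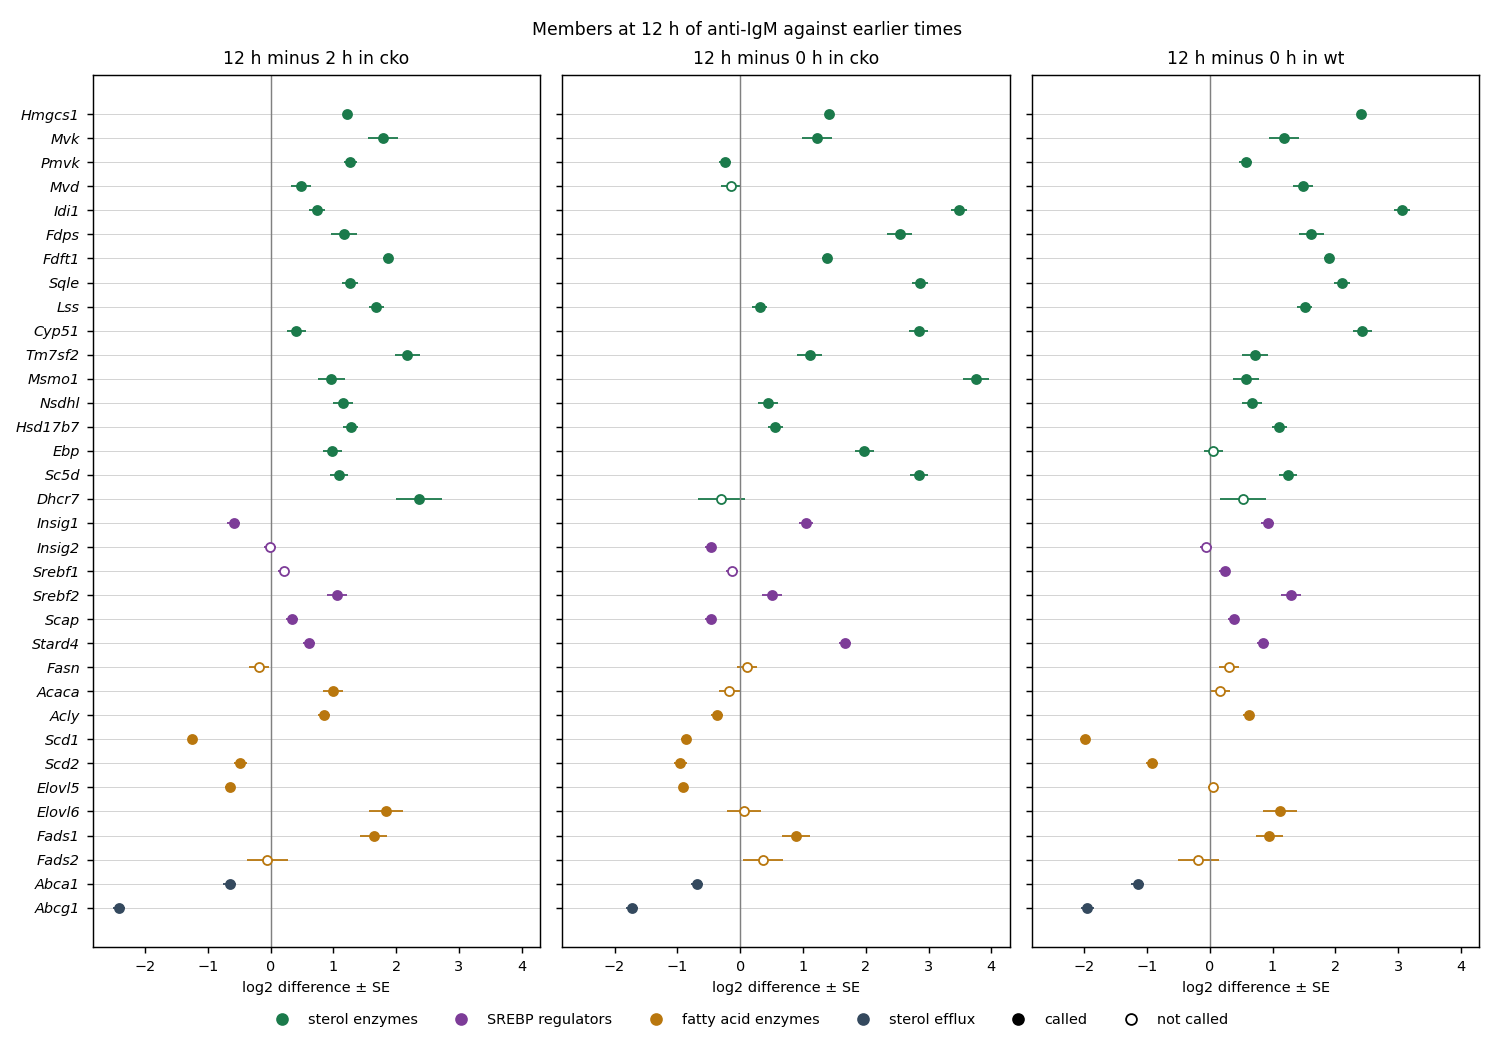
Log2 difference ± standard error of each of the 34 members at 12 h against 2 h in cko cells, at 12 h against 0 h in cko cells and at 12 h against 0 h in wt cells, with filled points for called genes and colours for the 4 roles. In the first and last of these the sterol enzymes lie at or above 0, Scd1 lies at -1.25 and -1.99, and Abcg1 at -2.41 and -1.95.

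The 12 h comparisons that lie across the control-probe division gave the sterol enzymes a similar count. In cko cells at 12 h against 0 h, 18 members rose and 9 fell, where 58.9% of all genes were called, 25.9% higher and 33.1% lower. With every array scaled to a common median, 19 members rose and 5 fell. Of the 17 sterol enzymes 14 rose, led by Msmo1 (3.76 ± 0.21, adjusted p = 1.8e-09), Idi1 (3.49 ± 0.13, adjusted p = 3.1e-11) and Sqle (2.86 ± 0.13, adjusted p = 1.9e-10), and Pmvk was called lower (-0.24 ± 0.10, adjusted p = 0.04996). That Pmvk call was lost without any one of several arrays (-0.27 to -0.16, adjusted p = 0.059 to 0.28), and its direction turned with median scaling (0.05). In wt cells at 12 h against 2 h, 21 members rose and 6 fell, where 57.3% of all genes were called, 35.3% higher and 22% lower. The differences at 12 h against 0 h in the additive fit, 1 for both genotypes, were 3.18 for Idi1, 2.61 for Cyp51, 2.22 for Hmgcs1, 2.21 for Sqle and 0.93 for Msmo1.

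Most members had more than 1 probe set, and these were compared. Of the 21 members called at 12 h against 2 h in cko cells that had another probe set above the filter, 11 had another one called the same way. Of 20 such members at 12 h against 0 h in wt cells, 11 had another one called the same way. Idi1 had a second probe set with a difference of 3.06 in wt cells, the same as the first. Hmgcs1 had 4 others, with differences of -0.24 to 0.94 in cko cells and 0.20 to 2.38 in wt cells. The second Msmo1 probe set was not called in either comparison (0.70 in cko cells and 0.68 in wt cells).

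At 2 h the same route split, in comparisons that lie across the control-probe division. In cko cells 12 members rose and 18 fell at 2 h against 0 h, where 63% of all genes were called, 23.8% higher and 39.2% lower. In wt cells 12 members rose and 15 fell, where 59.7% of all genes were called, 23.5% higher and 36.2% lower. The member medians were -0.40 in cko cells and -0.12 in wt cells, beside medians of -0.32 and -0.24 over all genes. With every array scaled to a common median, all genes had medians of -0.03 in cko cells and -0.04 in wt cells, and 14 members rose and 11 fell in cko cells. These comparisons share their 0 h arrays with the 12 h comparisons above. Markers moved as well: the summed B cell signals are given above, and the summed myeloid signal was 2142 to 2364 at 2 h and 8169 to 8290 at 0 h on cko arrays, and 11301 to 11466 at 2 h and 18011 to 18635 at 0 h on wt arrays. The summed T and NK cell signal was 323 to 375 at 2 h and 1188 to 1242 at 0 h on cko arrays, and 371 to 372 at 2 h and 1257 to 1300 at 0 h on wt arrays. That of the erythroid markers was 96 to 98 at 2 h and 241 to 262 at 0 h on cko arrays, and 387 to 410 at 2 h and 1277 to 1409 at 0 h on wt arrays. The part of these markers in the 2 h differences was not tested.

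Among the sterol enzymes, 8 rose and 8 fell in cko cells, and 7 rose and 9 fell in wt cells. Idi1 was 6.71-fold higher at 2 h than at 0 h in cko cells (2.75 ± 0.13, adjusted p = 1.9e-10) and 4.81-fold higher in wt cells (2.27 ± 0.13, adjusted p = 1.9e-09), as its signals above show. Cyp51 rose by 2.44 ± 0.15 in cko cells and by 1.72 ± 0.15 in wt cells, and Sqle by 1.59 ± 0.13 and 1.20 ± 0.13. Fdps rose by 1.37 ± 0.20 in cko cells and 1.81 ± 0.20 in wt cells, and Msmo1 by 2.79 ± 0.21 and 1.40 ± 0.21. Hmgcs1 rose by 0.22 ± 0.05 in cko cells and 0.97 ± 0.05 in wt cells, while its 4 other probe sets gave 1.21 to 1.92 in cko cells and 0.33 to 1.86 in wt cells. In the additive fit the 2 h difference common to both genotypes was 2.32 for Idi1, 2.02 for Cyp51, 1.20 for Hmgcs1 and 0.84 for Sqle, and for Msmo1 it turned to -0.39. For Fdps it was 0.45 and not called.

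The enzymes that fell at 2 h included Dhcr7, Lss and Pmvk. Dhcr7 differed by -2.66 ± 0.37 (adjusted p = 1.7e-05) in cko cells and by -3.64 ± 0.37 (adjusted p = 8e-07) in wt cells. Lss differed by -1.37 ± 0.12 (adjusted p = 1.6e-07) in cko cells and -1.23 ± 0.12 (adjusted p = 5.8e-07) in wt cells, and Pmvk by -1.51 ± 0.10 (adjusted p = 6.5e-09) and -1.75 ± 0.10 (adjusted p = 1.7e-09). In the additive fit the common 2 h difference was -1.82 for Dhcr7, -0.70 for Pmvk and -0.17 for Lss, which was then not called, and Mvd turned to 1.0. Of the 20 members called in cko cells that had another probe set above the filter, 9 had another one called the same way and 5 one called the opposite way. The 5 were Fdft1, Hsd17b7, Insig2, Acly and Elovl5. Of 19 such members in wt cells, 9 had another one called the same way and 5 one called the opposite way, namely Fdft1, Hsd17b7, Scap, Scd1 and Abcg1.

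**Figure D3:**
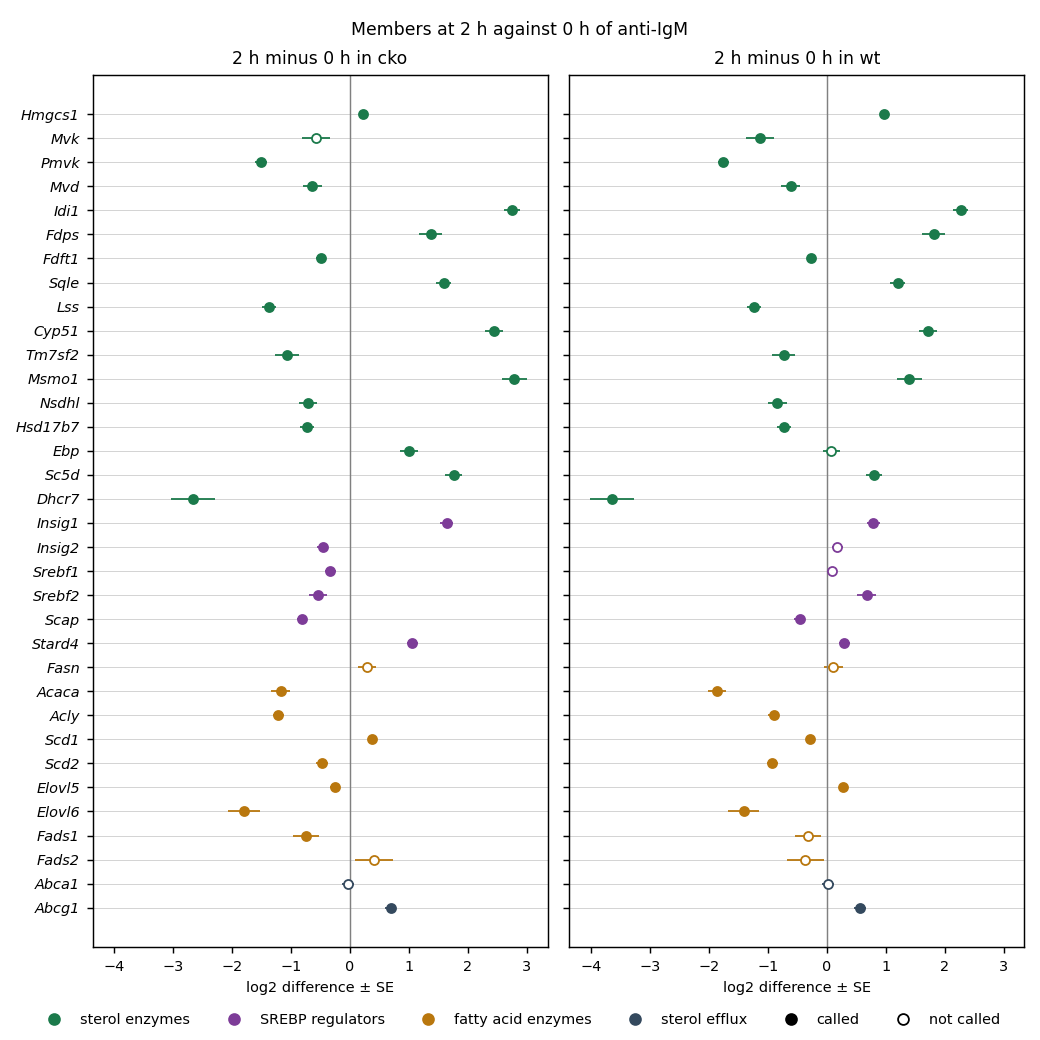
Log2 difference ± standard error of each of the 34 members at 2 h against 0 h in cko cells and in wt cells, with filled points for called genes and colours for the 4 roles. Idi1 lies at 2.75 and 2.27 and Dhcr7 at -2.66 and -3.64, so the sterol enzymes stand on both sides of 0.

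**Figure D4:**
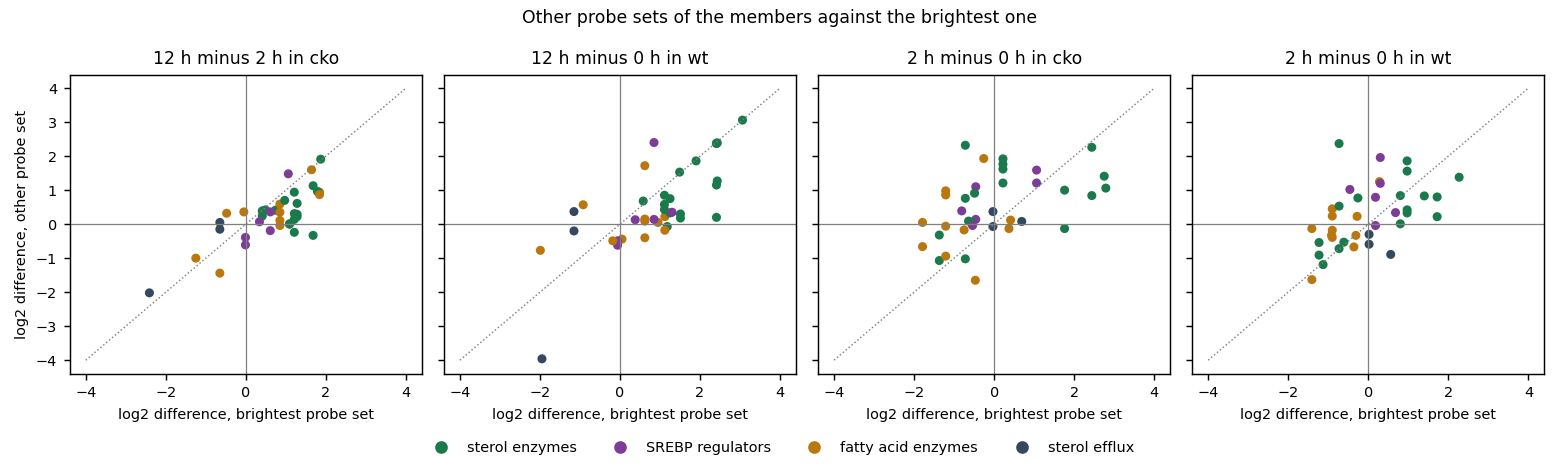
Log2 difference of every further probe set of the members that passed the filter (vertical axis) against that of the brightest probe set of the same gene (horizontal axis) in 4 comparisons, with the line of equal values dotted. The 12 h panels have most sterol enzyme points in the upper right, and the 2 h panels have points in which the probe sets of 1 gene lie on opposite sides of 0, such as Hsd17b7 with -0.72 and 2.32 in cko cells.

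Of the regulators at 2 h, Insig1 rose in cko cells (1.64 ± 0.11, adjusted p = 1.2e-08) and in wt cells (0.79 ± 0.11, adjusted p = 3e-05), and the additive fit gave a common difference of 1.52. Stard4 rose in cko cells (1.06 ± 0.09, adjusted p = 7.9e-08) and in wt cells (0.30 ± 0.09, adjusted p = 0.0079), the wt call being lost without wt 0 h replicate 2 or wt 2 h replicate 2 (0.25 and 0.20). Srebf2 fell in cko cells (-0.54 ± 0.16, adjusted p = 0.009) and rose in wt cells (0.68 ± 0.16, adjusted p = 0.0022). With median scaling the Srebf2 difference in cko cells was -0.26 and not called, and its second probe set was not called in either genotype (-0.04 and 0.34). Scap fell in cko cells (-0.81 ± 0.09, adjusted p = 1.8e-06) and in wt cells (-0.46 ± 0.09, adjusted p = 0.00041), where its other probe set rose (1.02, adjusted p = 0.0044). Among the fatty acid enzymes, Elovl6 fell (-1.79 ± 0.27 in cko cells and -1.41 ± 0.27 in wt cells), as did Acaca (-1.17 ± 0.16 and -1.86 ± 0.16) and Acly (-1.21 ± 0.09 and -0.90 ± 0.09). None of the 4 other Acly probe sets was called lower (-0.94 to 0.98 in cko cells and -0.39 to 0.45 in wt cells). In the additive fit the common 2 h difference was not called for Stard4 (0.24), Srebf2 (0.25), Scap (0.04), Elovl6 (-0.72) or Acly (-0.23). For Abca1 it was called lower (-0.49). Abcg1 rose in cko cells (0.69 ± 0.10, adjusted p = 2.1e-05) and in wt cells (0.56 ± 0.10, adjusted p = 0.00015), where its other probe set fell (-0.89, adjusted p = 0.0014), and Abca1 was not called in either (-0.03 and 0.02).

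Fewer members were called between the genotypes than between times. Over all genes the shares called were 28.5 to 51.3% between the genotypes and 47.9 to 63% between times. At 0 h, 9 members were higher and 8 lower in cko cells than in wt cells, where 32.3% of all genes were called, 16.3% higher and 16% lower. With median scaling 7 were higher and 10 lower. The sterol enzymes gave 7 higher and 2 lower, the fatty acid enzymes 1 higher and 4 lower, and both exporters were lower. The largest rises were in Fdps (0.95 ± 0.20, adjusted p = 0.0028), Hsd17b7 (0.82 ± 0.12, adjusted p = 0.0002) and Mvd (0.70 ± 0.16, adjusted p = 0.004). The largest falls were in Abca1 (-0.91 ± 0.10, adjusted p = 1.3e-05), Fasn (-0.79 ± 0.16, adjusted p = 0.0019) and Sc5d (-0.79 ± 0.14, adjusted p = 0.00088). The 2 other Sc5d probe sets were not called (-0.01 and 0.33), nor was the mean of its probe sets (-0.15). At 0 h Srebf2 was 209 and 216 on cko arrays and 130.4 and 126 on wt arrays, and it was called higher (0.66 ± 0.16, adjusted p = 0.0063), while its second probe set was not called (-0.27).

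The called members at 0 h were all within 2-fold, the nearest to it being Fdps at 1.93-fold and Abca1 at 0.530 of the wt level. Scd1 (-0.50), Scd2 (-0.52) and Elovl5 (0.33) each had another probe set called the opposite way (0.32, 1.10 and -0.49). The 5 calls of Abcg1, Acaca, Lss, Nsdhl and Pmvk were lost without 1 or more of the 4 arrays compared. The summed myeloid signal at 0 h was 8169 to 8290 on cko arrays, against 18011 to 18635 on wt arrays, and that of the 5 erythroid markers with a probe set was 241 to 262 on cko arrays, against 1277 to 1409 on wt arrays. Their part in the lower Abca1 was not tested.

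At 2 h, with all 4 arrays on the same side of the control-probe division, 10 members were higher and 7 lower in cko cells, where 28.5% of all genes were called, 12.8% higher and 15.7% lower. Of the sterol enzymes 8 were higher, among them Msmo1 (0.90 ± 0.21, adjusted p = 0.0052), Hsd17b7 (0.84 ± 0.12, adjusted p = 0.00021) and Pmvk (0.54 ± 0.10, adjusted p = 0.00095). Insig1 was higher (0.67 ± 0.11, adjusted p = 0.00059), with signals of 895 and 816 on cko arrays, against 503 and 558 on wt arrays. Stard4 was higher too (0.60 ± 0.09, adjusted p = 0.00021), with signals of 2021 and 1834 on cko arrays, against 1182 and 1363 on wt arrays. Neither pair of arrays overlapped the other pair, which held for 63.6% of all genes in this comparison. Insig2 (-0.50 ± 0.09, adjusted p = 0.0011), Scap (-0.42 ± 0.09, adjusted p = 0.0032) and Abca1 (-0.97 ± 0.10, adjusted p = 9e-06) were lower.

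These 8 calls remained without any 1 of the 12 arrays, and the other 9 did not. With probe sets averaged by gene Msmo1 (0.40), Insig2 (-0.18) and Abca1 (-0.41) were not called, the 2 other Insig2 probe sets giving -0.09 and 0.06. In the additive fit, with 1 genotype difference for all times, Msmo1 (0.21), Insig1 (0.25), Stard4 (0.22), Insig2 (-0.18) and Scap (-0.24) were not called. Without 1 of the 4 arrays at 2 h the calls of Idi1, Cyp51, Ebp, Mvd, Nsdhl, Fdft1, Srebf2, Fasn and Elovl5 were lost, with Idi1 at 0.44 without wt 2 h replicate 2 (adjusted p = 0.074). Of 12 called members with another probe set above the filter, 4 had another one called the same way. Msmo1 was not among them, its second probe set giving -0.09. The summed myeloid signal was 2142 to 2364 on cko arrays, against 11301 to 11466 on wt arrays, and its part in these differences was not tested.

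**Figure D5:**
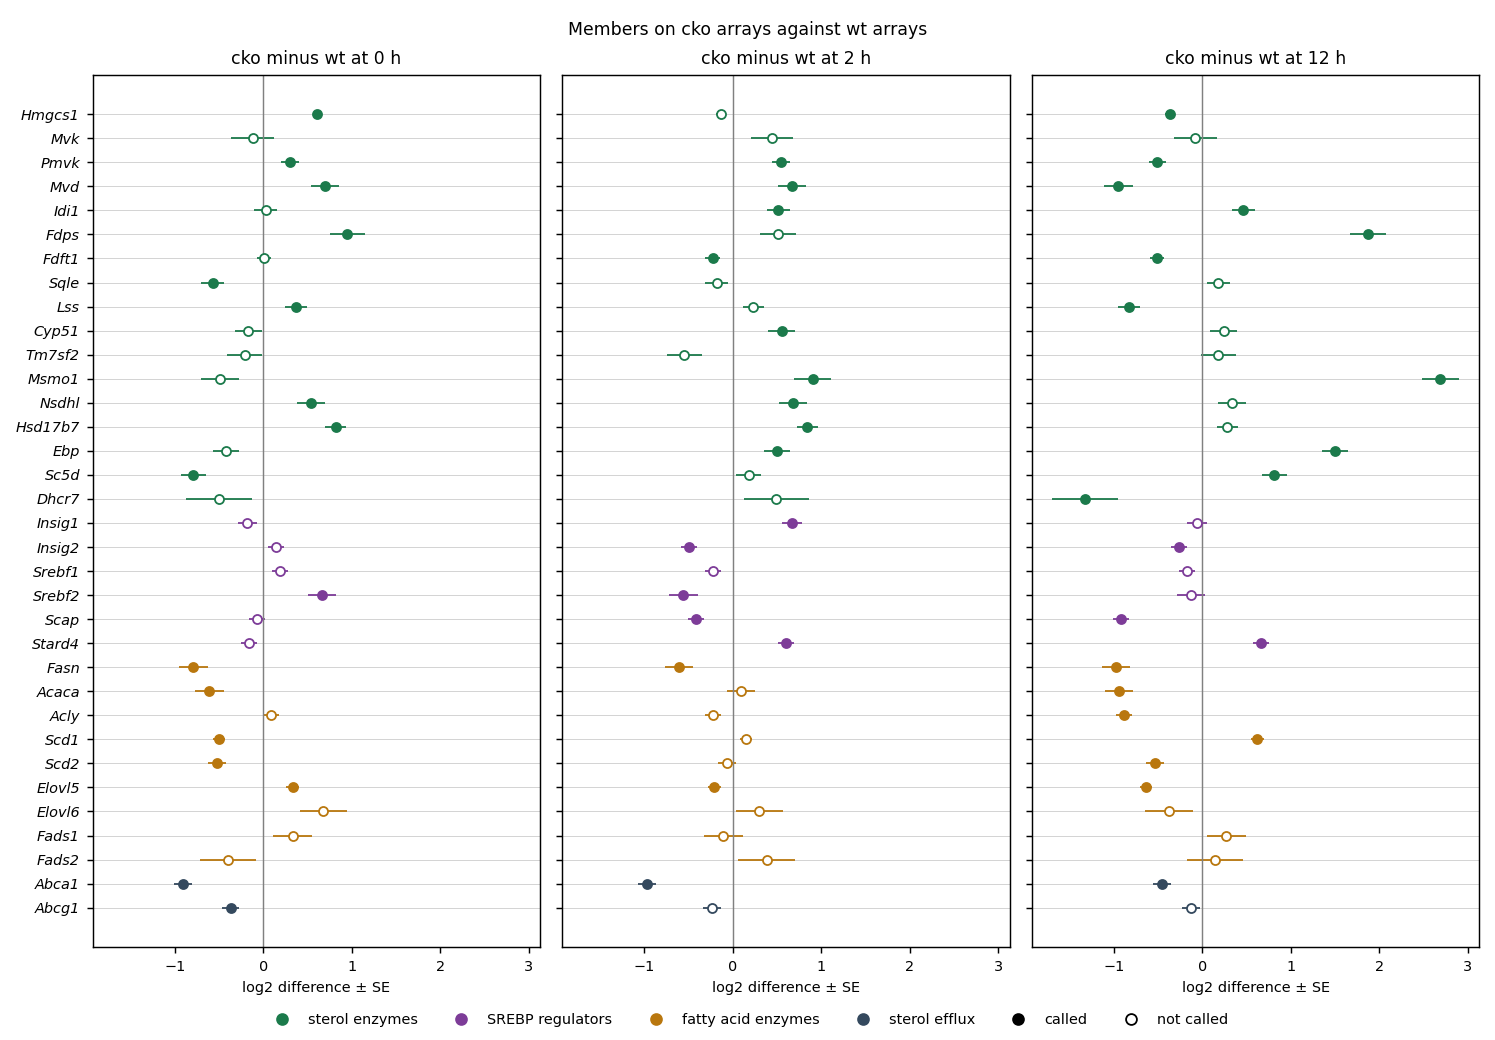
Log2 difference ± standard error of each of the 34 members in cko cells against wt cells at 0, 2 and 12 h, with filled points for called genes and colours for the 4 roles. At 12 h Msmo1 (2.69), Fdps (1.87) and Ebp (1.50) lie furthest to the right and Dhcr7 (-1.33) furthest to the left, and Abca1 is below 0 at each time.

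At 12 h, across the control-probe division, 7 members were higher and 14 lower in cko cells, where 51.3% of all genes were called, 21.4% higher and 29.9% lower. With median scaling 11 were higher and 11 lower. Msmo1 was 6.46-fold higher (2.69 ± 0.21, adjusted p = 1e-07), with the signals given above, but its other probe set was not called (0.76, adjusted p = 0.11). Fdps (1.87 ± 0.20, adjusted p = 2.8e-06) and Ebp (1.50 ± 0.15, adjusted p = 1.7e-06) were higher as well, and Ebp had signals of 2842 and 2222 on cko arrays, against 909 and 843 on wt arrays without overlap. Mvd (-0.95 ± 0.16, adjusted p = 0.00016), Lss (-0.83 ± 0.12, adjusted p = 4.6e-05) and Dhcr7 (-1.33 ± 0.37, adjusted p = 0.0072) were lower, the Dhcr7 call being lost without wt 12 h replicate 1 (-1.12, adjusted p = 0.066). In the fatty acid group Fasn (-0.98 ± 0.16, adjusted p = 0.00014), Acaca (-0.94 ± 0.16, adjusted p = 0.00018) and Acly (-0.89 ± 0.09, adjusted p = 1.1e-06) were lower and Scd1 was higher (0.62 ± 0.07, adjusted p = 6.8e-06). The 4 other Acly probe sets were not called (-0.41 to 0.47), nor was the mean of its probe sets (-0.06).

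In the additive fit, the cko against wt difference common to all times was 0.73 for Fdps, 0.21 for Msmo1, 0.04 for Ebp, 0.30 for Lss, 0.68 for Mvd and -0.01 for Dhcr7. Msmo1, Ebp and Dhcr7 were then not called. It was -0.94 for Abca1, -0.70 for Fasn, -0.18 for Scd1 and -0.07 for Acly. Of the 15 members called at 12 h that had another probe set above the filter, 4 had another one called the same way and 5 one called the opposite way. The summed myeloid signal was 2240 to 2243 on cko arrays and 6446 to 7263 on wt arrays at 12 h, and its part was not tested.

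Abca1 and Fasn were called lower in cko cells at all 3 times. Abca1 differed by -0.91 ± 0.10 at 0 h, -0.97 ± 0.10 at 2 h and -0.46 ± 0.10 at 12 h, the last not being called with median scaling (-0.24, adjusted p = 0.068). Fasn differed by -0.79 ± 0.16 at 0 h, -0.61 ± 0.16 at 2 h and -0.98 ± 0.16 at 12 h. The 2 h Fasn call was lost without wt 2 h replicate 1 (-0.54, adjusted p = 0.086) or cko 2 h replicate 1 (-0.49, adjusted p = 0.10). The 2 further Abca1 probe sets were not called at any time, with -0.85 and -0.60 at 0 h (adjusted p = 0.15 and 0.12), -0.18 and -0.07 at 2 h (adjusted p = 0.82 and 0.89) and -0.80 and -0.62 at 12 h (adjusted p = 0.12 and 0.07) in limma's fit.

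Whether the response, taken as the change from 0 h in culture with anti-IgM, differed between the genotypes was tested by the interaction. The interaction is the response in cko cells minus that in wt cells. At 2 h, 9 members had a positive and 5 a negative interaction, where 20.4% of all genes were called, 8.59% higher and 11.8% lower. The largest called ones were Msmo1 (1.39 ± 0.29, adjusted p = 0.0045), Srebf2 (-1.22 ± 0.23, adjusted p = 0.002) and Sc5d (0.96 ± 0.20, adjusted p = 0.0042). Insig1 (0.85 ± 0.16, adjusted p = 0.0021) and Stard4 (0.76 ± 0.12, adjusted p = 0.00075) rose more in cko cells and Hmgcs1 rose less (-0.76 ± 0.07, adjusted p = 1.5e-05). The second Msmo1 probe set gave 0.23 (adjusted p = 0.82), and the mean of both gave 0.81 (adjusted p = 0.15) in limma's fit. The 2 other Sc5d probe sets were not called (-0.14 and 0.15), nor was the mean of its probe sets (0.33). Both sides of this interaction span the control-probe division. Of the 10 called members with another probe set above the filter, 1 had another one called the same way and 4 one called the opposite way, Hmgcs1 (1.43) and Stard4 (-0.37) among them.

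At 12 h, 8 members had a positive and 13 a negative interaction, where 43.2% of all genes were called, 18.8% higher and 24.4% lower. With median scaling the counts were 11 positive and 7 negative. The largest called ones were Msmo1 (3.18 ± 0.29, adjusted p = 1.1e-06), Ebp (1.92 ± 0.22, adjusted p = 7.6e-06) and Mvd (-1.64 ± 0.22, adjusted p = 3.8e-05). Sc5d was positive (1.60 ± 0.20, adjusted p = 2.1e-05) and Lss negative (-1.20 ± 0.17, adjusted p = 5.7e-05), and among the regulators Scap was negative (-0.85 ± 0.13, adjusted p = 8.8e-05) and Stard4 positive (0.82 ± 0.12, adjusted p = 9.7e-05). The other probe sets of Sc5d (-0.45 and 0.24) and of Lss (-0.94 and -0.12) were not called. The mean of the Sc5d probe sets was not called either (0.47). Only the cko response crosses the control-probe division here, so the interaction and the division cannot be told apart. Of 16 called members with another probe set above the filter, 2 had another one called the same way and 8 one called the opposite way. Stard4 was among the 8 (-0.45, with 0.88 not called), and the other Scap probe set was not called (0.34). With probe sets averaged by gene neither Scap (-0.26) nor Stard4 (0.42) was called.

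Changes of at least 2-fold were fewer. In cko cells 8 members rose and 7 fell by at least 2-fold at 2 h against 0 h, where 12.4% and 22.6% of all genes did. At 12 h against 0 h in cko cells 13 rose and 1 fell, against 12.3% and 15.6% of all genes, and at 12 h against 2 h 15 rose and 2 fell, against 11.2% and 5.59%. In wt cells 5 rose and 6 fell at 2 h against 0 h, against 11.2% and 19.3% of all genes. At 12 h against 0 h in wt cells 13 rose and 3 fell, against 8% and 8.97% of all genes, and at 12 h against 2 h 14 rose and 3 fell, against 16.4% and 9.25%. For cko against wt the called members were all within 2-fold at 0 h, where 2.3% of all genes were at least 2-fold higher and 3.31% lower, and at 2 h, where 1.12% were higher and 3.05% lower. At 12 h 3 members, Msmo1, Fdps and Ebp, were at least 2-fold higher and 1, Dhcr7, was lower, against 8.03% and 9.93% of all genes. The interaction reached 2-fold for 1 member upward and 1 downward at 2 h, against 1.99% and 2.92% of all genes, and for 4 upward and 3 downward at 12 h, against 9.11% and 11.6%.

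Of 48 further genes of the same pathways, 38 were tested. At 12 h against 2 h in cko cells 15 rose and 7 fell, where 30.2% of all genes were higher and 18.7% lower. In wt cells 13 rose and 5 fell at 12 h against 0 h, where 24.8% of all genes were higher and 23.1% lower. Genes of fatty acid elongation were among the rises: Tecr, the last reductase of the elongation cycle, by 1.59 ± 0.07 in the cko comparison, and Hsd17b12 and Hacd3, its other reductase and its dehydratase, by 1.52 ± 0.08 and 1.29 ± 0.09 in the wt comparison. Mylip, a ubiquitin ligase induced by LXR, fell by 1.90 ± 0.09 on the log2 scale in the cko comparison and by 2.47 ± 0.09 in the wt comparison.

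At 2 h against 0 h, 5 of these 38 genes rose and 17 fell in cko cells, where 23.8% of all genes were higher and 39.2% lower, and 8 rose and 19 fell in wt cells, where 23.5% were higher and 36.2% lower. Acsl3, which activates long-chain fatty acids, rose by 3.33 ± 0.15 in cko cells and 1.80 ± 0.15 in wt cells, with an interaction of 1.53 ± 0.22 (adjusted p = 0.00025). Lipa, the lysosomal acid lipase that frees cholesterol from its esters, differed by -2.45 ± 0.12 in cko cells and -2.04 ± 0.12 in wt cells. In cko cells against wt cells, 9 were higher and 7 lower at 0 h, against 16.3% and 16% of all genes. At 2 h 3 were higher and 11 lower, against 12.8% and 15.7%, and at 12 h 5 were higher and 17 lower, against 21.4% and 29.9%. Acsl3 was lower at 0 h (-1.71 ± 0.15), Hacd3 was lower at 2 h (-1.26 ± 0.09), and the nuclear receptor Rxrb (-1.58 ± 0.06) and the lipoprotein receptor Scarb1 (-1.46 ± 0.15) were lower at 12 h.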

How the data were processed

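RNA of 12 samples was measured on mouse whole-genome arrays. Per the labels' protocols, 100 ng of RNA went through 2 rounds of amplification and 10 µg were hybridised to each array. The authors' deposited values are signal intensity on a linear scale, 1 per probe set, made with GCOS 1.4 per the submitters' processing notes and scaled so that the trimmed mean is 250 on every array. Nothing used here states their summarisation method, and depth cannot be counted on arrays: 2 arrays per group limit the precision.

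Of 45101 probe sets 34945 had 1 gene symbol. Genes were represented by their probe set with the highest mean log2(signal + 16), and kept above the 40th percentile (5.14, a signal of 19.2). limma 3.58.1 in R 4.3.3 fitted a mean per group to 12190 genes with a variance trend, with 6 residual degrees of freedom, and p-values were adjusted by the Benjamini-Hochberg method over all genes in each of 11 comparisons. The procedure was tested on simulated data. Alternatives covered normalisation, pseudocount, filter, fit, probe sets, replicate block, an additive term for the control-probe division and each array left out.

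The members and lists were chosen with earlier results of these data known. Values by array are given for the SREBP regulators, exporters, Scd1, Scd2, Fasn and Acly and for the 3 called members with the largest difference in each comparison, and further pathway genes are taken from the 2 largest rises and falls per comparison. Same-numbered arrays were not paired: their deviations correlated at -0.014 to 0.013 over 15 pairs of groups.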

Additional observations from a re-analysis of the deposited data

Results flagged for a closer look

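For 14 members the response at 2 h, and for 21 the response at 12 h, differed between the genotypes by limma's interaction test at an adjusted p under 0.05. Of all genes 20.4% were called in that test at 2 h and 43.2% at 12 h. At 12 h the interaction and the control-probe division cannot be told apart. With probe sets averaged by gene 7 members were called at 2 h and 12 at 12 h, and the sign of Elovl5, Hmgcs1 and Scd2 at 2 h and of Elovl6, Fdft1, Hmgcs1, Hsd17b7, Insig2 and Srebf2 at 12 h was the opposite. Values are the response in cko cells minus that in wt cells, on the log2 scale.

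At 2 h the sterol enzymes gave 1.39 for Msmo1, 0.96 for Sc5d, 0.92 for Ebp, 0.72 for Cyp51 and -0.76 for Hmgcs1. The regulators gave 0.85 for Insig1, 0.76 for Stard4, -0.42 for Srebf1, -0.64 for Insig2 and -1.22 for Srebf2. The fatty acid enzymes gave 0.70 for Acaca, 0.65 for Scd1, 0.45 for Scd2 and -0.54 for Elovl5.

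At 12 h the sterol enzymes gave 3.18 for Msmo1, 1.92 for Ebp, 1.60 for Sc5d, 0.93 for Fdps, 0.75 for Sqle, -0.52 for Fdft1, -0.55 for Hsd17b7, -0.81 for Pmvk, -0.99 for Hmgcs1, -1.20 for Lss and -1.64 for Mvd. The regulators gave 0.82 for Stard4, -0.36 for Srebf1, -0.41 for Insig2, -0.79 for Srebf2 and -0.85 for Scap. The fatty acid enzymes gave 1.12 for Scd1, -0.97 for Elovl5, -0.98 for Acly and -1.06 for Elovl6, and the exporter Abca1 gave 0.46.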

How the results depend on the processing

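Over 374 member differences and 25 alternatives, 9271 values were computed: 8668 kept direction and side of the threshold, 318 lost the call and 82 gained it. Direction changed in 68 values called in at least 1 of the settings compared, which are given here, and in 135 called in neither, which are not. The cause was not tested.

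The additive term for the control-probe division left 11 calls (6 higher, 5 lower) between the genotypes at each time and 15 (8 higher, 7 lower) at 2 h in each genotype. It cannot fit an interaction. Asking also for 2-fold left 0, 0 and 4 calls for cko against wt at 0, 2 and 12 h. It left 15, 14 and 17 in cko cells and 11, 16 and 17 in wt cells for 2 h against 0 h, 12 h against 0 h and 12 h against 2 h, and 2 and 7 interactions at 2 and 12 h. Averaging the probe sets of each gene left 7 and 12 interactions.

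Leaving out 1 array at a time, calls numbered 13 to 18, 12 to 18 and 20 to 21 between the genotypes at 0, 2 and 12 h. In cko cells they numbered 29 to 31, 23 to 27 and 28 to 30 for 2 h against 0 h, 12 h against 0 h and 12 h against 2 h. In wt cells they numbered 26 to 27, 24 to 27 and 23 to 27, and for the interactions 10 to 15 at 2 h and 17 to 21 at 12 h.

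With the replicate block 17, 18 and 21 members were called between the genotypes at 0, 2 and 12 h, and 26 at 12 h against 0 h in cko cells. The block gained Hmgcs1 in cko against wt at 2 h (-0.14) and lost Pmvk at 12 h against 0 h in cko cells (-0.24), and it changed no other member's call.

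Among called values, direction changed for Elovl5 at 12 h against 0 h in wt cells with quantile normalisation (-0.20). With median scaling it changed for Abca1 (0.25) and Elovl5 (0.02) at 2 h against 0 h and Pmvk (0.05) at 12 h against 0 h, all in cko cells.

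With probe sets averaged by gene it changed for Elovl5 (-0.08), Hmgcs1 (-0.04) and Scd2 (0.29) in cko against wt at 0 h, and for Abcg1 (0.30), Fdft1 (0.07), Hmgcs1 (0.07), Idi1 (-0.02) and Insig2 (0.19) at 12 h. In cko cells it changed for Elovl5 (0.83), Fdft1 (0.21), Hsd17b7 (0.33) and Insig2 (0.26) at 2 h and for Acly (0.30) and Lss (-0.09) at 12 h, each against 0 h. In wt cells it changed for Abcg1 (-0.16), Fdft1 (0.26), Hsd17b7 (0.36) and Scap (0.28) at 2 h against 0 h, Elovl5 (-0.19) at 12 h against 0 h, and Scap (-0.02), Scd2 (0.45) and Stard4 (-0.03) at 12 h against 2 h. The interactions changed for Elovl5 (0.07), Hmgcs1 (0.32) and Scd2 (-0.44) at 2 h, and for Elovl6 (0.03), Fdft1 (0.22), Hmgcs1 (0.11), Hsd17b7 (0.20), Idi1 (-0.40), Insig2 (0.31) and Srebf2 (0.14) at 12 h.

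With the additive term, among values called with or without it, it changed for Elovl5 (0.06) and Srebf2 (0.05) in cko against wt at 2 h, and for Elovl5 (0.06), Hmgcs1 (0.23), Lss (0.30), Mvd (0.68), Pmvk (0.42), Sc5d (-0.31), Scd1 (-0.18) and Sqle (-0.38) at 12 h. At 2 h against 0 h it changed in both genotypes for Ebp (-0.92), Fdft1 (0.02), Msmo1 (-0.39), Mvd (1.0) and Scap (0.04). It changed there in cko cells for Elovl5 (0.70), Scd1 (-0.75), Srebf1 (0.03) and Srebf2 (0.25), and in wt cells for Abca1 (-0.49). At 12 h against 0 h in cko cells it changed for Acly (0.54), Mvd (1.48), Pmvk (0.63) and Scap (0.30), and at 12 h against 2 h in wt cells for Ebp (1.21), Fdps (1.06) and Msmo1 (1.32).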
